A study of Canis lupus familiaris with 4 samples.

Results

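The miRNAs described here are miR-143 and miR-145, which are made from a shared primary transcript, and miR-199 and miR-214, a second such pair. They were taken by name from the table of small RNA sequencing of extracellular vesicles (EVs), where 6 of 673 rows matched, cfa-mir-143, cfa-mir-145, cfa-mir-214 and the copies cfa-mir-199-1, cfa-mir-199-2 and cfa-mir-199-3. The copies of miR-199 had equal values in every library and count once, which leaves 4 distinct miRNAs. EVs came from CHMp, a canine mammary gland adenocarcinoma cell line of a primary tumor (pTDEs), and from CHMm, a line of the metastases (mTDEs), with 2 libraries per line. Both lines were grown with fetal bovine serum and gentamicin, washed, and moved to medium without either before EVs were collected by filtration and ultracentrifugation. Each origin is represented by 1 line, no treatment was applied, and the study calls the replicates biological without a statement in the labels or methods that they were separate cultures, so that p-values measure only the spread between these libraries, which may be technical. The libraries held between 2330271 and 6296386 reads on the rows of the table, and levels are given in CPM (reads per 1000000) recovered from the deposited values.

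In mammalian tissues miR-143 and miR-145 are abundant in smooth muscle and fibroblasts and scarce in epithelial cells. They are known for holding smooth muscle cells in a contractile state, and miR-145 for repressing the stem cell factors OCT4, SOX2 and KLF4. miR-199a and miR-214 are expressed together in mesenchymal cells of the embryo under the transcription factor TWIST1, from a transcript on the opposite strand of the dynamin 3 gene, and are known in fibrosis. In carcinomas such miRNAs are mostly found in the stroma.

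By the RefSeq annotation of the dog assembly UU_Cfam_GSD_1.0, in which 6 of the 6 rows matched a gene, MIR143 and MIR145 are each other's nearest miRNA gene and lie within no other annotated gene. MIR199-2 and MIR214 are also nearest neighbors, and both lie within DNM3. MIR199-1 lies within DNM2 and MIR199-3 within DNM1, away from MIR214. The miR-199 value can therefore hold reads of 3 loci, of which 1 is beside miR-214, and the rows do not name the arm of the hairpin that was counted. Coordinates of this assembly are not printed because the reads were mapped to CanFam3.1.

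The seed, bases 2 to 8 of a miRNA, pairs with its targets. It is shown for miR-143, miR-214 and the 3p arm of miR-199a because it sets which messages a partner could reach. The sequences were read from the study's list of miRDeep2 candidates. A candidate on the plus strand of CanFam3.1 at chr4:59534535-59534593 has a mature arm whose reverse complement is the known 3p strand of miR-143. A candidate on the minus strand at chr7:26818588-26818646 was matched by miRDeep2 to the seed of human miR-3120-3p, a miRNA known from the strand opposite miR-214, and the reverse complement of its star arm holds the letters of the miR-214-3p seed, further from its end than in the mature miRNA. Another candidate, on the plus strand at chr3:26893760-26893840, was matched to the seed of human miR-199a-3p but is another hairpin. Capitals mark the 7 letters of the seed, and none of the 3 candidates is on the study's list of accepted predictions, so they have no level here.
chr4 candidate mature arm: gagcuacagugcuucaucuca
its reverse complement, miR-143: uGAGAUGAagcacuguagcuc
chr7 candidate star arm: ccugucugugccugcuguaca
its reverse complement, with the miR-214-3p seed: uguaCAGCAGGcacagacagg
chr7 candidate mature arm, miR-3120-3p seed: cACAGCAAguguagacaggca
chr3 candidate, miR-199a-3p seed: gCAGUAGUcacugagcucgugg
Position by position, the seeds of miR-214-3p and miR-199a-3p are equal at 5 of 7 bases, and the seed of miR-143 equals either of them at 3 of 7. The sequence of miR-145 was not printed.

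Together the 4 miRNAs were a small part of every library. In pTDEs their sum came to 589 CPM (replicate 1) and 926 CPM (replicate 2), or 0.0589% and 0.0926% of the library. In mTDEs it came to 81.6 CPM (replicate 1) and 762 CPM (replicate 2), or 0.00816% and 0.0762%. The means were 758 ± 238 CPM for pTDEs and 422 ± 481 CPM for mTDEs (SD, n = 2), and the cell lines overlapped. miR-199 made up 81.7% of the sum in pTDE replicate 1 and 42.9% in mTDE replicate 1, whereas miR-143 made up 61.9% and 63.2% in pTDE and mTDE replicates 2. In bulk EV RNA, fewer vesicles that carry a miRNA and less of it per vesicle cannot be told apart.

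**Figure D1:**
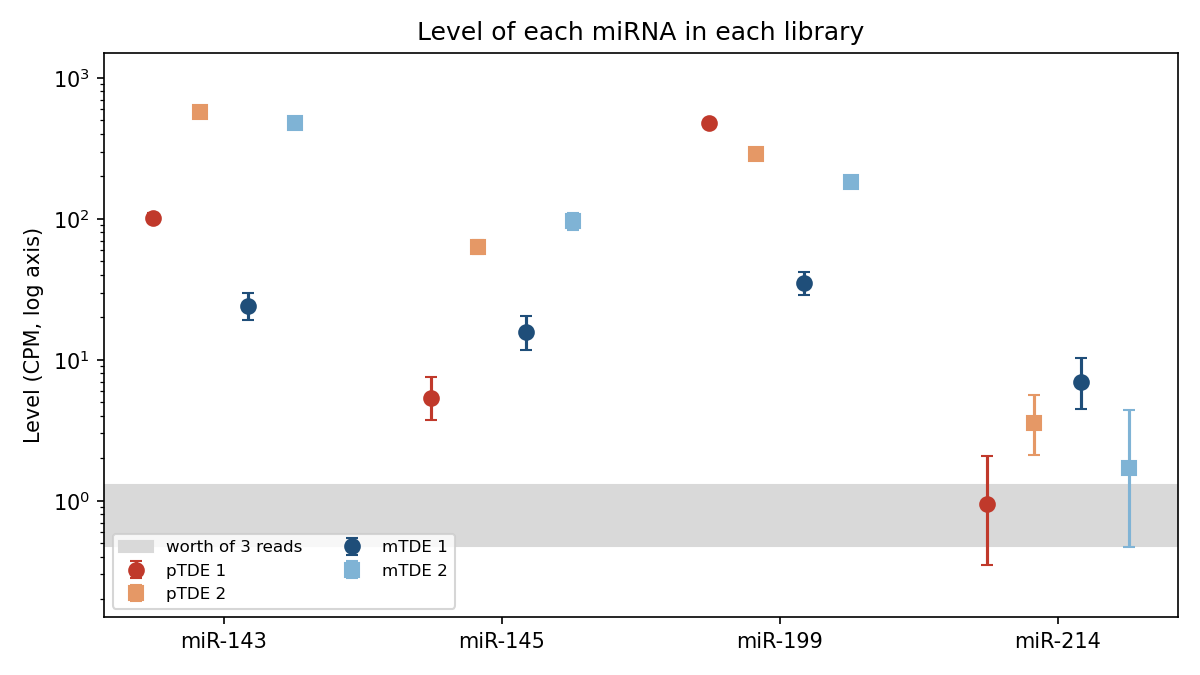
Level of each miRNA in each library in CPM on a log axis, with exact binomial 95% confidence intervals that cover counting error only, and the worth of 3 reads in gray. Circles are replicate 1 and squares replicate 2; for miR-143 and miR-145 both squares lie above both circles, and for miR-199 the pTDE libraries, at 481 and 286 CPM, lie above the mTDE libraries, at 35.0 and 182 CPM.

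miR-143 had 102 CPM in replicate 1 and 573 CPM in replicate 2 of pTDEs, and 24.0 and 482 CPM in the same order in mTDEs. Replicate 2 was thus the high library of both lines, and the lines overlapped. miR-145, its partner, was at 5.40 and 63.3 CPM in pTDEs and at 15.6 and 96.2 CPM in mTDEs, in the same order of replicates. These levels rest on 34 to 320 reads for miR-145 and on 83 to 2896 reads for miR-143. miR-199 had 481 CPM in replicate 1 and 286 CPM in replicate 2 of pTDEs, and 35.0 and 182 CPM in the same order in mTDEs, with no overlap between the lines. In pTDEs its high library was replicate 1 and in mTDEs replicate 2. miR-214 was at 0.949 and 3.56 CPM in pTDEs and at 6.94 and 1.71 CPM in mTDEs, from 6, 18, 24 and 4 reads. Its 95% confidence interval (exact Clopper-Pearson, counting error only) ran from 0.350 to 2.07 CPM in pTDE replicate 1 and from 4.45 to 10.3 CPM in mTDE replicate 1, which do not overlap. Within each line the intervals of the 2 replicates did not overlap either, though their ends lay close. Those of replicate 2 ran from 2.11 to 5.63 CPM in pTDEs and from 0.468 to 4.40 CPM in mTDEs. Forward and reverse reads were merged, so that 1 fragment may count as 2 reads and the intervals are then too narrow to separate these replicates.

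By mean level the order in pTDEs was miR-199, miR-143, miR-145 and miR-214, and in mTDEs miR-143, miR-199, miR-145 and miR-214. miR-143 and miR-199 did not differ beyond their spread in either line, at 337 ± 333 and 384 ± 138 CPM among pTDEs and at 253 ± 324 and 109 ± 104 CPM among mTDEs (SD, n = 2). The means of miR-145 were 34.3 ± 40.9 CPM for pTDEs and 55.9 ± 57.0 CPM for mTDEs, and those of miR-214 2.26 ± 1.85 and 4.32 ± 3.70 CPM (SD, n = 2). miR-214 was the lowest of the 4 in every library. Levels of different miRNAs also carry unequal ligation and capture, which CPM does not correct.

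The comparison of the cell lines asked which EV miRNAs differ between the primary tumor and the metastases. miR-199 was 3.53-fold higher by its means in pTDEs, miR-143 was 1.33-fold higher, and miR-145 and miR-214 were 1.63-fold and 1.92-fold higher in mTDEs, but none passed the test. limma on log2(CPM + 1) called 0 of the 4 at an adjusted p under 0.05, and 0 of 4 at an unadjusted p under 0.05. The unadjusted p of miR-199 was 0.083, and 0.026 with median-ratio factors, 0.012 with the deposited values read as CPM and 0.017 without mTDE replicate 2, each short of the adjusted threshold. limma voom on the recovered reads also called 0 of 4 at either threshold. Among all 326 rows tested, limma called 1.84% in either direction at the adjusted threshold and 19.6% at the unadjusted threshold.

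On the log2 scale, pTDEs over mTDEs, miR-199 differed by 2.20 (SE 0.98, limma adjusted p = 0.29), with a 95% confidence interval from -0.43 to 4.83. It was the only miRNA of the 4 (1 of 4) whose lines did not overlap, which was also true of 53.4% of the rows tested, 26.1% with pTDEs higher and 27.3% with pTDEs lower, so that the share of members is below that of all rows. For miR-143 the log2 difference was 1.14 (SE 1.75, limma adjusted p = 0.75), with an interval from -3.54 to 5.83. For miR-145 it was -0.99 (SE 1.63, limma adjusted p = 0.76), with an interval from -5.35 to 3.37. For miR-214 it was -0.64 (SE 0.86, limma adjusted p = 0.71), with an interval from -2.94 to 1.67. These intervals hold changes of either direction, and those of miR-143 and miR-145 are wider than 3 on the log2 scale on each side of 0. The direction of miR-143 turned without pTDE replicate 2 (-0.10) or mTDE replicate 1 (-0.99), that of miR-145 without pTDE replicate 1 (0.68) or mTDE replicate 2 (0.29), and that of miR-214 without mTDE replicate 1 (0.14). That of miR-199 stayed positive with each library left out, from 1.02 to 3.37.

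The larger difference of miR-143 and miR-145 was between replicates of the same line. miR-143 was 5.64-fold higher in replicate 2 than in replicate 1 of pTDEs and 20.1-fold higher in mTDEs. miR-145 was 11.7-fold and 6.16-fold higher in the same order. On the log2(CPM + 1) scale these differences were 2.48 and 4.27 for miR-143 and 3.33 and 2.55 for miR-145, beside a median absolute difference between replicates of 0.64 in pTDEs and 0.91 in mTDEs over the rows tested. In pTDEs miR-145 ranked 2 and miR-143 ranked 7 of 326 by this difference, and in mTDEs they ranked 54 and 19. Both partners exceeded 2 on the log2 scale in both lines, which was true of 10 of the 326 rows (3.07%). The median difference over all 326 rows was 0.0 in pTDEs and 0.53 in mTDEs, so that mTDE replicate 2 was higher in general. With median-ratio factors the 10 rows became 6, and miR-145, at 1.92 in mTDEs, no longer exceeded 2. The reverse, a replicate 1 higher by more than 2 in both lines, was true of 0.613%. miR-199 and miR-214 did not follow: miR-199 had differences of -0.75 in pTDEs and 2.35 in mTDEs, and miR-214 of 1.23 and -1.55. The labels do not say that a replicate number marks a shared batch, and libraries were sequenced at either of 2 read lengths on HiSeq and NovaSeq instruments, without a statement in the sources used here of which library was run on which.

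**Figure D2:**
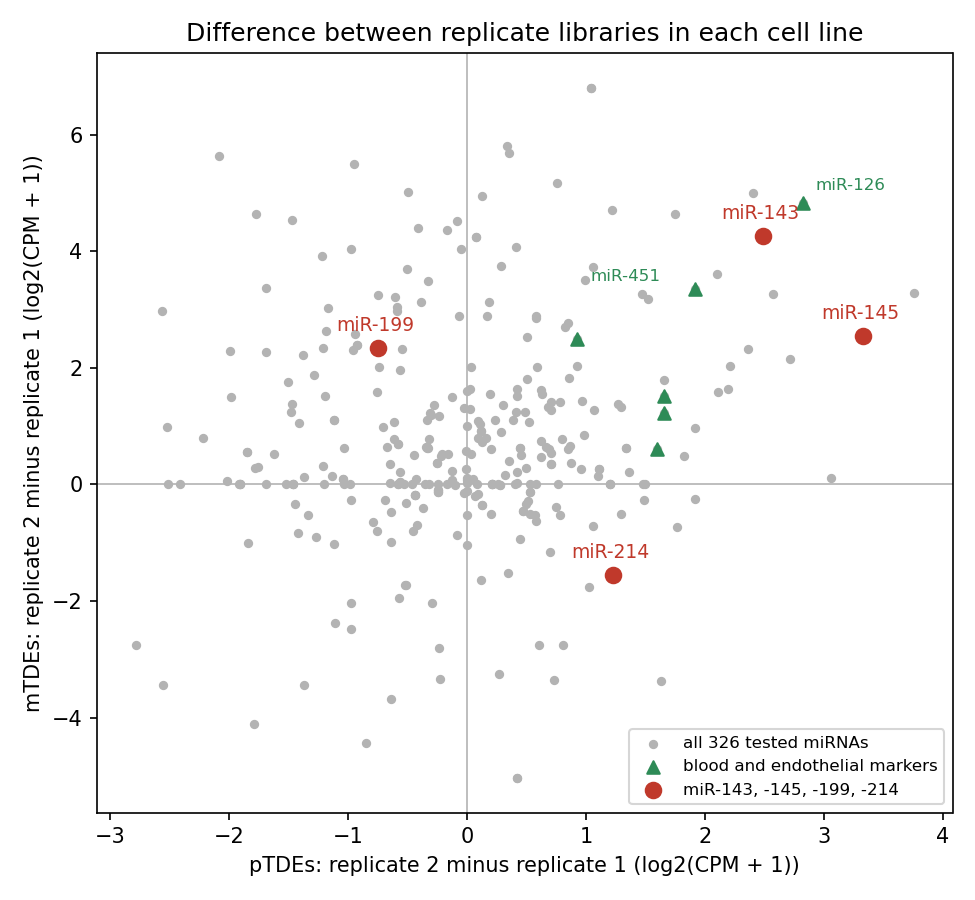
Difference of replicate 2 minus replicate 1 on the log2(CPM + 1) scale, in pTDEs (horizontal axis) and mTDEs (vertical axis), for each of the 326 rows tested. miR-143 (2.48, 4.27) and miR-145 (3.33, 2.55) lie at the upper right, with the endothelial and blood markers (green triangles) to the right of 0 and above it, whereas miR-199 (-0.75, 2.35) and miR-214 (1.23, -1.55) lie in other quadrants.

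Markers of blood and endothelium differed between the same libraries. miR-126, the defining miRNA of endothelium, was at 3.49 and 30.8 CPM in the pTDE libraries (replicate 1 first), and was listed at 0 in mTDE replicate 1 and at 27.5 CPM in mTDE replicate 2. The blood list of 6 miRNAs (miR-451, miR-144, miR-486, miR-223, miR-142 and miR-150) summed to 261 and 893 CPM in pTDEs and to 706 and 3018 CPM in mTDEs. Of the 5 tested, 5 were higher in replicate 2 of both lines, against 33.1% of the rows tested. With median-ratio factors these were 4 of 5, against 23.3%, and miR-223 differed by -0.02 in mTDEs on the log2 scale. miR-451, the erythroid miRNA, was at 123 and 465 CPM in pTDEs and at 138 and 1423 CPM in mTDEs, whereas miR-144, its cluster partner, was listed at 0 in every library. Of the 4 muscle miRNAs tested, 1 was higher in replicate 2 of both lines, miR-133a, at 168 and 346 CPM in pTDEs and at 0 and 111 CPM in mTDEs. miR-133b was at 2.38 and 2.18 CPM in pTDEs and at 0 and 21.9 CPM in mTDEs. Lower values in replicate 2 were found for miR-1 in pTDEs (61.6 and 21.8 CPM) and for miR-499 in both lines (53.5 and 19.0 CPM, then 19.7 and 15.4 CPM). The muscle list of 7 summed to 286 and 389 CPM in pTDEs and to 19.7 and 149 CPM in mTDEs, with the heart miRNAs miR-208a and miR-208b at 0 in every library and skeletal miR-206 at 0 in 3 and at 0.160 CPM in pTDE replicate 1. Between the lines limma called 0 of the 5 blood and 0 of the 4 muscle miRNAs tested, with median log2 fold changes of -1.42 and 2.68. miR-122 of the liver, at 158 and 98.5 CPM in pTDEs and 364 and 570 CPM in mTDEs, was higher in replicate 1 of pTDEs and in replicate 2 of mTDEs. The part of blood, endothelial or muscle RNA in the levels of miR-143 and miR-145 was not tested.

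The miRNAs most like each of the 4 were found by the root mean square difference of log2(CPM + 1), after subtraction of each miRNA's mean, over the 4 libraries and among known miRNAs with a mean of at least 10 CPM. For miR-143 the nearest was miR-126, at a distance of 0.23, followed by miR-1468 (0.36) and miR-350 (0.50). Each of these was listed at 0 in mTDE replicate 1, so that its place rests on the 1 CPM added. With 0.1 CPM added, miR-126 fell to place 47, miR-1468 to place 29 and miR-350 to place 66 of 196, and with 5 CPM to places 3, 7 and 5. With either amount the nearest to miR-143 was miR-218-1, at a distance of 0.54 with 0.1 CPM and 0.52 with 5 CPM. miR-143 was 29.1, 18.6 and 17.5 times the level of miR-126 in pTDE replicate 1, pTDE replicate 2 and mTDE replicate 2. For miR-145 the nearest were miR-184 (0.31), miR-1296 (0.58) and miR-127 (0.58). With 0.1 CPM added these stood at places 1, 4 and 2 for miR-145, and with 5 CPM at places 4, 1 and 5. miR-184 went from 25.4 to 355 CPM between replicates 1 and 2 of pTDEs and from 69.4 to 683 CPM between those of mTDEs. These 3 and miR-126 were also among the 10 rows with replicate 2 higher by more than 2 in both lines. Between miR-143 and miR-145 themselves the distance was 1.26, and miR-145 stood at place 25 of 196 by its distance from miR-143 (21 with 0.1 CPM added and 18 with 5 CPM).

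For miR-199 the nearest were miR-190b (0.49), miR-140 (0.68), a miRNA abundant in cartilage, and miR-129-1 (0.71). miR-190b was listed at 0 in mTDE replicate 1, and stood at place 124 with 0.1 CPM added and at place 3 with 5 CPM, whereas miR-140 stood at places 1 and 4. miR-140 had 1414 and 2117 CPM in the pTDE libraries (replicate 1 first) and 257 and 1910 CPM in the mTDE libraries, with mTDE replicate 1 the lowest as for miR-199. For miR-214 the nearest were miR-99b (0.33), miR-30d (0.35) and miR-183 (0.42), each of which was, like miR-214, highest in mTDE replicate 1. miR-99b, for example, had 1678 and 3497 CPM in pTDEs and 5870 and 3580 CPM in mTDEs, far above miR-214. With 0.1 CPM added miR-99b, miR-30d and miR-183 held places 1 to 3, and with 5 CPM places 12, 1 and 9. miR-199 stood at place 172 of 197 by its distance from miR-214, which was 2.10 (167 with 0.1 CPM added and 180 with 5 CPM). These distances describe 4 libraries and carry no test.

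**Figure D3:**
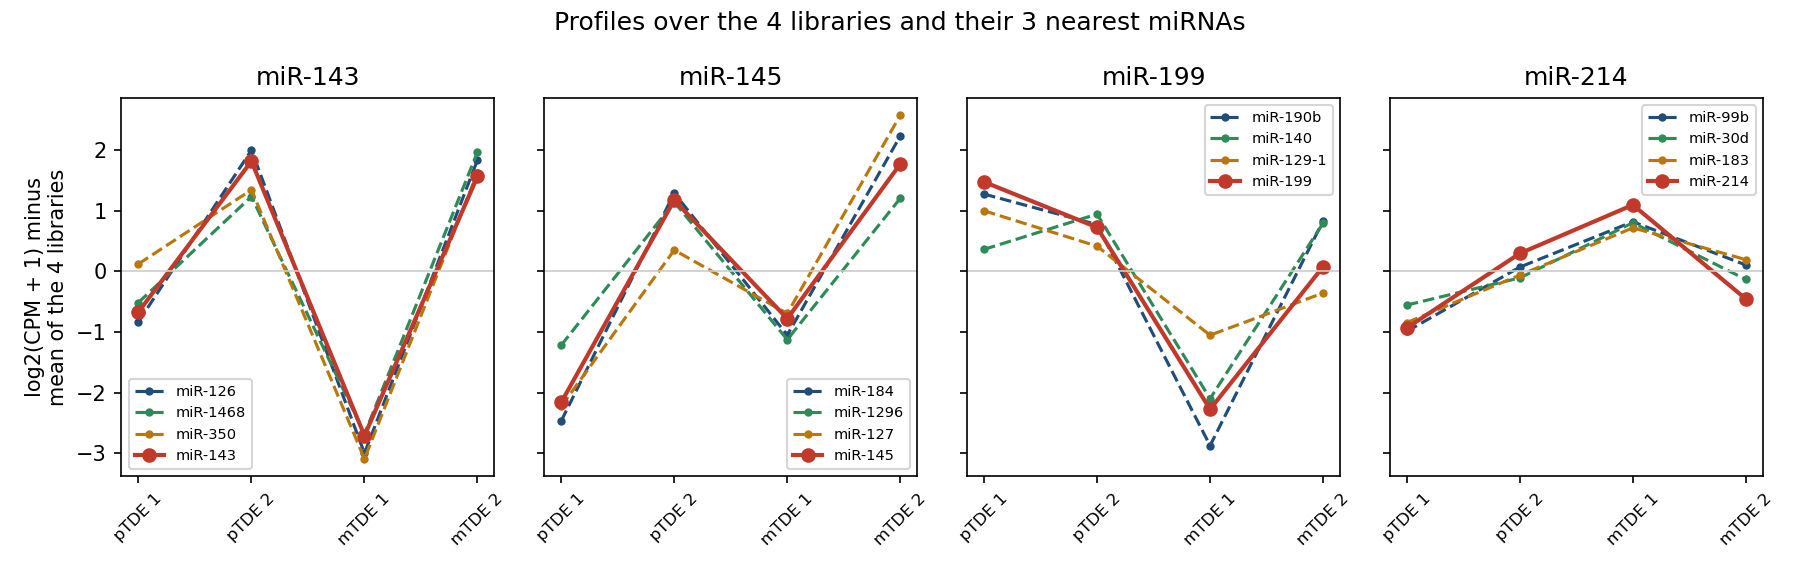
Profile of each miRNA over the 4 libraries (red) with its 3 nearest miRNAs (dashed), as log2(CPM + 1) minus the mean of the 4 libraries. miR-143 and miR-145 have peaks in both replicates 2, miR-199 has its lowest point in mTDE replicate 1, and miR-214 its highest point there.

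Cluster partners were compared by their ratio within a library, given first from CPM and then, as tested, as the log2 ratio of CPM + 1, in which the scaling between libraries cancels except for the 1 CPM added. miR-143 was 18.8 times miR-145 in replicate 1 and 9.05 times in replicate 2 of pTDEs, and 1.54 and 5.0 times in the same order in mTDEs, so that both pTDE libraries had the higher ratio. On the CPM + 1 scale the mean log2 ratio was 3.58 in pTDEs and 1.45 in mTDEs, a difference of 2.13 (exact permutation test, two-sided, p = 0.33, 0.67 adjusted over the 2 pairs). With 2 libraries against 2, 0.33 is the smallest p that this test can give. The lines were also apart, with the same exact permutation p, for the clustered pairs miR-23b and miR-27b and miR-183 and miR-182. Among pairs at 0 in a library this held for miR-200b and miR-429, miR-200c and miR-141, and miR-195 and miR-497. The ratio of miR-199 to miR-214 was 507 and 80.4 in pTDEs and 5.04 and 107 in mTDEs, and the lines overlapped. On the CPM + 1 scale its mean log2 ratio was 6.96 in pTDEs and 4.13 in mTDEs, a difference of 2.83 (exact permutation test, two-sided, p = 0.67, 0.67 adjusted over the 2 pairs). From CPM with nothing added, the differences were 2.24 for miR-143 over miR-145 and 3.12 for miR-199 over miR-214, with the same exact permutation p. Without mTDE replicate 1 the difference of miR-199 over miR-214 was 0.88 and that of miR-143 over miR-145 was 1.27, and without mTDE replicate 2 they were 4.78 and 2.99.

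The log2 ratio (CPM + 1) had an SD over the 4 libraries of 1.46 for miR-143 and miR-145 and of 2.42 for miR-199 and miR-214. Of 16 other pairs of clustered miRNAs, 11 were above 0 in all libraries, and their SD ran from 0.23 for miR-221 and miR-222 to 1.55 for miR-17 and miR-20a, with a median of 0.85. The SD was larger than that of miR-143 and miR-145 in 1 of the 11 pairs and larger than that of miR-199 and miR-214 in 0 of 11. With the 5 pairs that were at 0 in a library, it was larger in 4 of 16 and in 3 of 16, the latter being miR-424 and miR-503 (2.49), miR-200c and miR-141 (2.46) and miR-132 and miR-212 (2.44). In sign, however, the difference between replicates was shared by miR-143 and miR-145 in both lines and by miR-199 and miR-214 in neither. Of the 11 pairs, only miR-29a with miR-29b-1 and miR-379 with miR-411 shared the sign of this difference in both lines. miR-214 had at most 24 reads, and miR-145 as few as 34, so that counting error enters these ratios. The miR-199 value can also hold reads of loci away from miR-214, so that its ratio may not be one of partners alone. These values are a description, with no test between pairs.

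**Figure D4:**
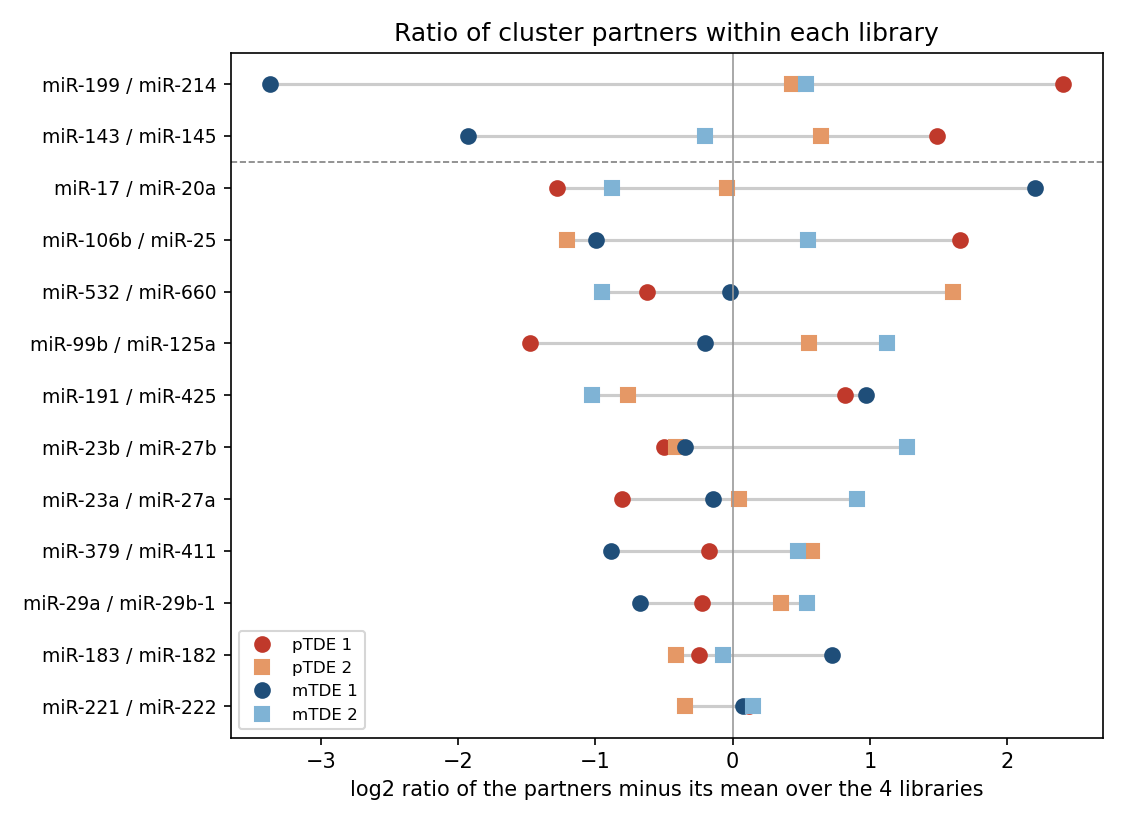
log2 ratio of cluster partners (CPM + 1) in each library minus its mean over the 4 libraries, for the pairs described (above the dashed line) and the 11 other pairs above 0 in all libraries, ordered by SD. The points of miR-199 and miR-214 (SD 2.42) spread most of the pairs drawn, and those of miR-221 and miR-222 (SD 0.23) least.

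Other miRNAs that are abundant in cultured fibroblasts and mesenchymal cells were read beside the 4. Of 13 names on this list, 12 matched 13 distinct rows, and limma called 0 of 13 higher and 0 of 13 lower in pTDEs. Their median log2 fold change was -0.31, beside -0.03 over all rows tested, and single values ran from -1.88 for miR-127 to 0.90 for miR-409. The list was far more abundant than the 4 miRNAs, with sums of 77906 and 101840 CPM in pTDEs and 113526 and 126332 CPM in mTDEs, led by miR-222, miR-99a, miR-125b, miR-10b and miR-221. In replicate 2 of both lines 6 of the 13 were higher, beside 33.1% of all rows tested, and the list holds the near-identical miR-125b-1 and miR-125b-2. miR-127, of the imprinted DLK1-DIO3 locus, was among these, at 4.45 and 31.5 CPM in pTDEs and 14.8 and 151 CPM in mTDEs.

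The epithelial list gave the contrast on the same libraries. All 7 of its miRNAs (miR-200a, miR-200b, miR-200c, miR-141, miR-429, miR-205 and miR-203) were lower in pTDEs, with sums of 73.9 and 104 CPM there and 23718 and 26413 CPM in mTDEs, and limma called 6 of 7 lower in pTDEs, which are the 6 rows called in all. Of all rows, 4 were called lower with pTDE replicate 1 or 2 left out and 0 with mTDE replicate 1 or 2 left out. In pTDEs 4 of the 7 epithelial miRNAs were listed at 0 in both libraries, where 3 reads are worth up to 0.594 CPM, and miR-200c, miR-205 and miR-203 were at 6.33 to 66.9 CPM. Fitted log2 fold changes of the list ran from -11.27 to -4.91, which depend on the 1 CPM added and are no bound. The 4 mesenchymal miRNAs had log2 fold changes between -0.99 and 2.20 and none was called. The epithelial list was chosen with earlier results of these data known, so that its calls are a description and no independent support. The difference between the lists themselves was not tested.

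**Figure D5:**
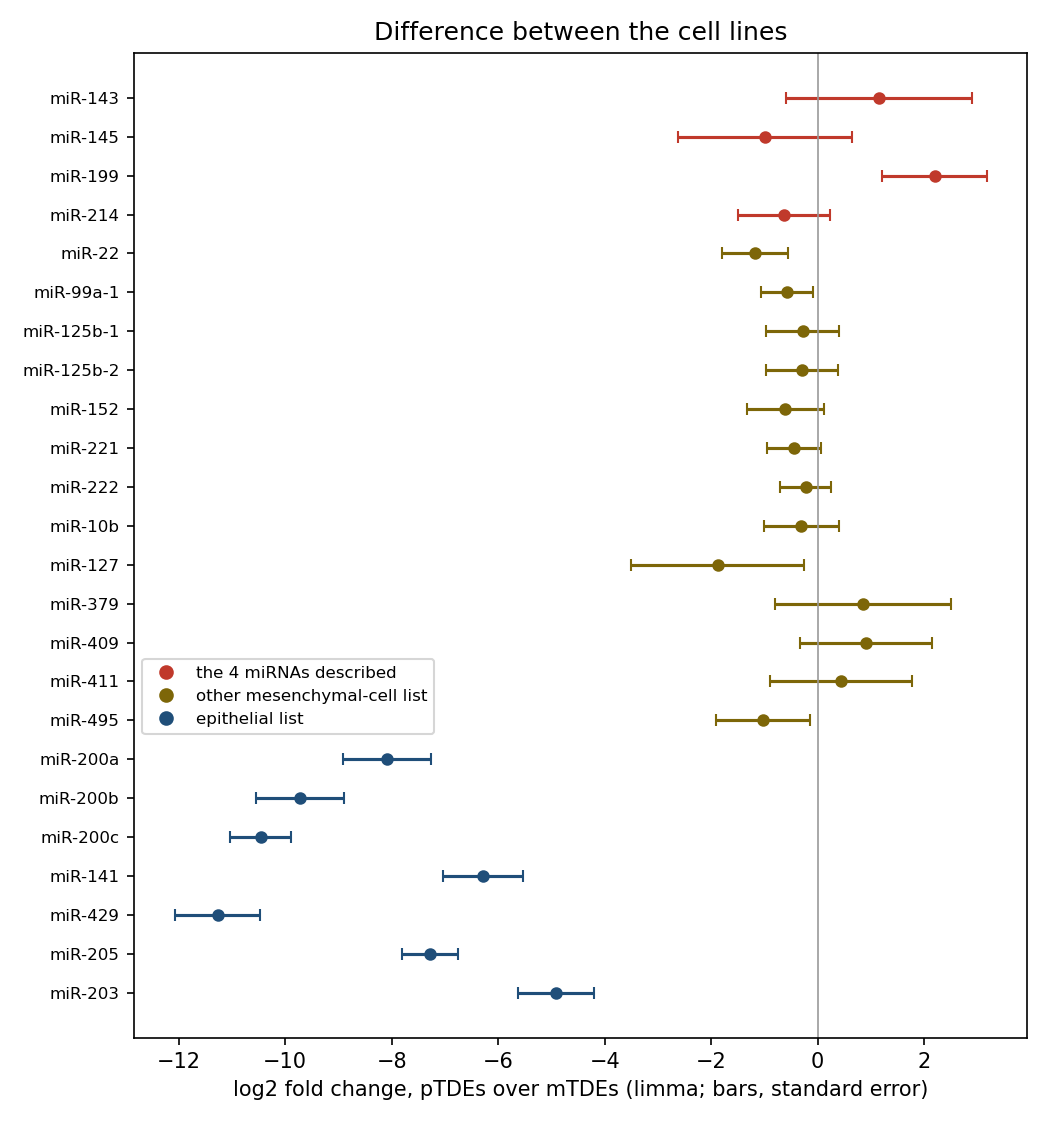
log2 fold change, pTDEs over mTDEs, from limma with its standard error for the 4 miRNAs (red), the other mesenchymal-cell miRNAs (brown) and the epithelial miRNAs (blue). The 4 miRNAs lie between -0.99 and 2.20, and the epithelial miRNAs between -11.27 and -4.91.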

How the data were processed

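Small RNA of EVs was sequenced in 2 CHMp and 2 CHMm libraries, grouped by their titles. Adapter trimming and a length filter with cutadapt, merging of forward with reverse reads, and miRDeep2 quantification on CanFam3.1 were done by the authors. Versions are not given in the sources used here. The deposited values per library are treated as a score: the paper calls them CPM, but their low values are unevenly spaced. The authors also deposited their edgeR comparison, which was not used and holds log2 fold changes, mean log2 CPM, p-values, false discovery rates and a score (the likelihood ratio).

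CPM were recovered as 2 to the power of (value/s), minus 1, with s per library (426 to 495) set so that a library totals 1000000. Reads are CPM divided by the largest step of which 100% of the low values were whole multiples, 0.159 to 0.429 CPM per read. Above 113 to 264 CPM, depending on the library, the read number is approximate. Because forward and reverse reads were merged, 1 fragment may count as 2 reads, and intervals are then too narrow. The worth of 3 reads was 0.476 to 1.29 CPM.

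limma 3.58.1 (R 4.3.3; eBayes with trend) was fitted to log2(CPM + 1) over 326 rows that were above 0 in the 2 libraries of either line, with Benjamini-Hochberg adjustment. The prior degrees of freedom were 2.4. Python 3.11.15, numpy 2.4.6, pandas 2.3.3 and scipy 1.17.1 were used otherwise. The conversion and limma were tested on simulated data. The miRNAs, lists and cluster pairs were chosen with earlier results of these data known. Named miRNAs are the 4 members, the 3 nearest profiles of each, list members and cluster pairs, and miR-218-1, chosen after its values were seen; the alternatives are those of the closing section.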

Additional observations from a re-analysis of the deposited data

How the results depend on the processing

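None of the 4 miRNAs was called by limma under any of 15 alternatives (14 for miR-214, which the filter on a mean of at least 10 CPM removed): other pseudocounts, row filters, scaling and variance models, voom, the deposited values read as CPM, identical rows counted once, known miRNAs only, the replicate block and each library left out. Adjusted p-values ran from 0.28 to 0.99 for miR-143, from 0.45 to 0.96 for miR-145, from 0.071 to 0.80 for miR-199 and from 0.35 to 0.99 for miR-214. Directions turned only with a library left out, where the lone library of a line is assumed to vary like the others: the log2 fold change ranged from -0.99 to 3.28 for miR-143 (-0.10 without pTDE replicate 2), from -2.65 to 0.68 for miR-145 (0.29 without mTDE replicate 2), from -1.41 to 0.14 for miR-214 and from 1.02 to 3.37 for miR-199. With the deposited values read as CPM the log2 fold changes were 0.40 (miR-143), -0.25 (miR-145), 0.57 (miR-199) and -0.40 (miR-214), and with 5 CPM added that of miR-214 was -0.33. Both differences of the partners' log2 ratio kept their sign, but with a library left out ranged from 1.27 to 2.99 for miR-143 over miR-145 and from 0.88 to 4.78 for miR-199 over miR-214, and were 0.65 and 0.97 if the deposited values are read as CPM.

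With the replicate block the log2 fold changes were 1.14 (limma adjusted p = 0.43) for miR-143, -0.99 (0.61) for miR-145, 2.20 (0.29) for miR-199 and -0.64 (0.74) for miR-214, and no call of the 4 changed. Over the rows tested, the deviations of libraries with the same number had a correlation of 0.15, and the samples share only a number.

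Of all rows, limma called 0 higher and 6 lower in pTDEs. The number higher was 28 with 0.1 CPM added before the log, 39 if the deposited values are read as CPM, 5 with median-ratio factors, 4 without a trend, 5 with voom and 4 with known miRNAs only, and ranged from 0 to 37 with a library left out. The number lower was 11 with 0.1 CPM added, 11 if the deposited values are read as CPM and 11 with voom, and ranged from 0 to 4 with a library left out. Median-ratio factors moved the median log2 fold change by 0.25. The summed level of 758 CPM in pTDEs became 11060 if the deposited values are read as CPM and 1525 with copies counted, and that of 422 CPM in mTDEs became 9324 and 639. The differences between replicates, whose alternatives were chosen after seeing the data, stayed positive: with the deposited values they were 0.45 and 0.75 for miR-143 and 1.16 and 0.51 for miR-145 in pTDEs and mTDEs, with median-ratio factors 3.63 for miR-143 and 1.92 for miR-145 in mTDEs, and with a pseudocount of 5 CPM 2.72 for miR-145 in pTDEs. With median-ratio factors the 10 rows over 2 in both lines became 6, without miR-145. The cause of these changes was not tested. Depth limits miR-214 most, with 4 to 24 reads.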
